A study of Mus musculus with 6 samples.

Results

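The methionine cycle and transsulfuration pathway was followed through 7 enzyme genes, Mat2a, Mat2b, Ahcy, Mtr, Mtrr, Cbs and Cth, chosen by function and matched by gene symbol among 24391 annotated genes. All 7 had enough reads to be tested. RNA was sequenced from mRPMaxKO, a cell line from a mouse lung tumour of the genotype written RPMax-/- (a model of small cell lung cancer without Rb1, p53 and Max), on a mixed 129/SvJ and C57BL/6 background, kept below passage 20. A polyclonal, puromycin-selected population that carried a doxycycline-inducible lentiviral vector was used in both groups, 3 control libraries and 3 libraries with MAX restored. The protocol, given alike for all 6, names 4 days of doxycycline. The labels give neither the vector of the control arm nor whether it received doxycycline, so an effect of either cannot be told apart from that of MAX. Nor do they name separate cultures for the replicates. The p-values therefore speak only for the scatter among these 6 libraries, part or all of which may be technical.

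The methionine cycle makes S-adenosylmethionine (SAM), the methyl donor of most methyltransferases. Methylation leaves S-adenosylhomocysteine, which is split to homocysteine, and homocysteine is either methylated back to methionine or passed through transsulfuration to cysteine, a precursor of glutathione. MAX is the obligate partner of the MYC proteins and also pairs with MXD, MNT and MGA proteins. The comparison asks how transcripts of these steps differ once MAX is put back.

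Libraries held 10046899 to 11925909 counts. Max, the restored gene, lay at 63.5 ± 2.47 CPM (counts scaled to library size after TMM; SD, n = 3) in the controls and 1327 ± 18.7 CPM with MAX restored. Rb1 was read at 322 ± 18.9 CPM in the controls, but counts summed over a gene do not check a deletion of part of it. The same holds for Trp53 and for Max in the controls, where the source of the Max counts was not tested. The neuroendocrine markers of this tumour type were abundant, with all 9 listed genes tested and a summed level of 8647 to 8884 CPM in the controls and 8735 to 9045 CPM with MAX restored. Of the 9 neuroendocrine markers 5 rose and 1 fell, where 31.2% and 32.3% of all genes tested did. Markers of other cell types were low, and the groups' sums overlapped for the immune and fibroblast markers but not for the endothelial ones. The 5 immune markers summed to 1.49 to 2.78 CPM in the controls and 2.59 to 3.42 CPM with MAX restored, the 5 fibroblast markers to 1.28 to 1.78 and 1.76 to 2.93 CPM, and the 4 endothelial markers to 1.05 to 1.09 and 1.43 to 1.96 CPM. Pdgfrb, a receptor of fibroblasts and pericytes, rose from 16 to 61 summed counts (log2 1.79, edgeR adjusted p = 0.00117). It had 3, 3 and 10 counts in the controls, so it entered the test through the group where it is high. The other fibroblast markers were not tested. In summed counts Col1a1 went from 9 to 5, Col1a2 from 6 to 1, Pdgfra from 15 to 12 and Dcn from 1 to 3. No endothelial marker was tested: Pecam1, an adhesion gene, had 10 and 32 summed counts, Tek 22 and 22 and Kdr 1 and 2. Cd3e and Cdh5 were at 0 throughout, and Ptprc and Col1a1 had at most 2 and 4 counts in a library. The part of these markers in the results was not tested. Control 1 stood apart, with a chi-square per degree of freedom of 8.91 and 10.2 against the other controls, where the other pairs within a group lay between 1.24 and 1.50. The ribosomal RNA precursor gene Rn45s took 0.996% of its counts and 0.109% to 0.187% of those of the other 5 libraries. Without control 1 the same number of enzyme genes, 6, was called lower.

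With MAX restored, 6 of the 7 enzyme genes were called lower and none higher. The 6 count Ahcy, whose level cannot be read from these counts, as given below. Cth, the last enzyme of transsulfuration, fell most, by 4.91-fold. Mtr, whose enzyme returns homocysteine to methionine, fell 1.71-fold, and Mtrr, whose enzyme reactivates that of Mtr, fell 1.50-fold. Cbs, the first enzyme of transsulfuration, fell 1.61-fold. Mat2a, the SAM synthetase, fell by only 1.10-fold, Ahcy rested on very few reads, and Mat2b did not pass the threshold. Cth, Mtr, Mtrr and Cbs kept their call under all 14 alternative settings, while Mat2a lost it in 1 and Ahcy in 5. In edgeR's quasi-likelihood test across all 12664 genes tested, 63.5% were called at an adjusted p under 0.05, 31.2% higher and 32.3% lower. Of the enzyme genes 85.7% were called lower, a share that counts Ahcy. The median log2 fold change of the 7 was -0.69, and that of all genes tested was -0.0036. The 0 called higher was also 0 at an unadjusted p under 0.05 and with DESeq2 and limma voom. In 5 of the 7 the groups did not overlap and MAX restored was lower, a pattern found in 33.8% of all genes tested, where 67.1% did not overlap in either direction. Summed over the 7 genes, the level was 413 to 424 CPM in the controls and 328 to 338 CPM with MAX restored. In bulk RNA, fewer cells that use a gene and less of its RNA per cell cannot be told apart.

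**Figure D1:**
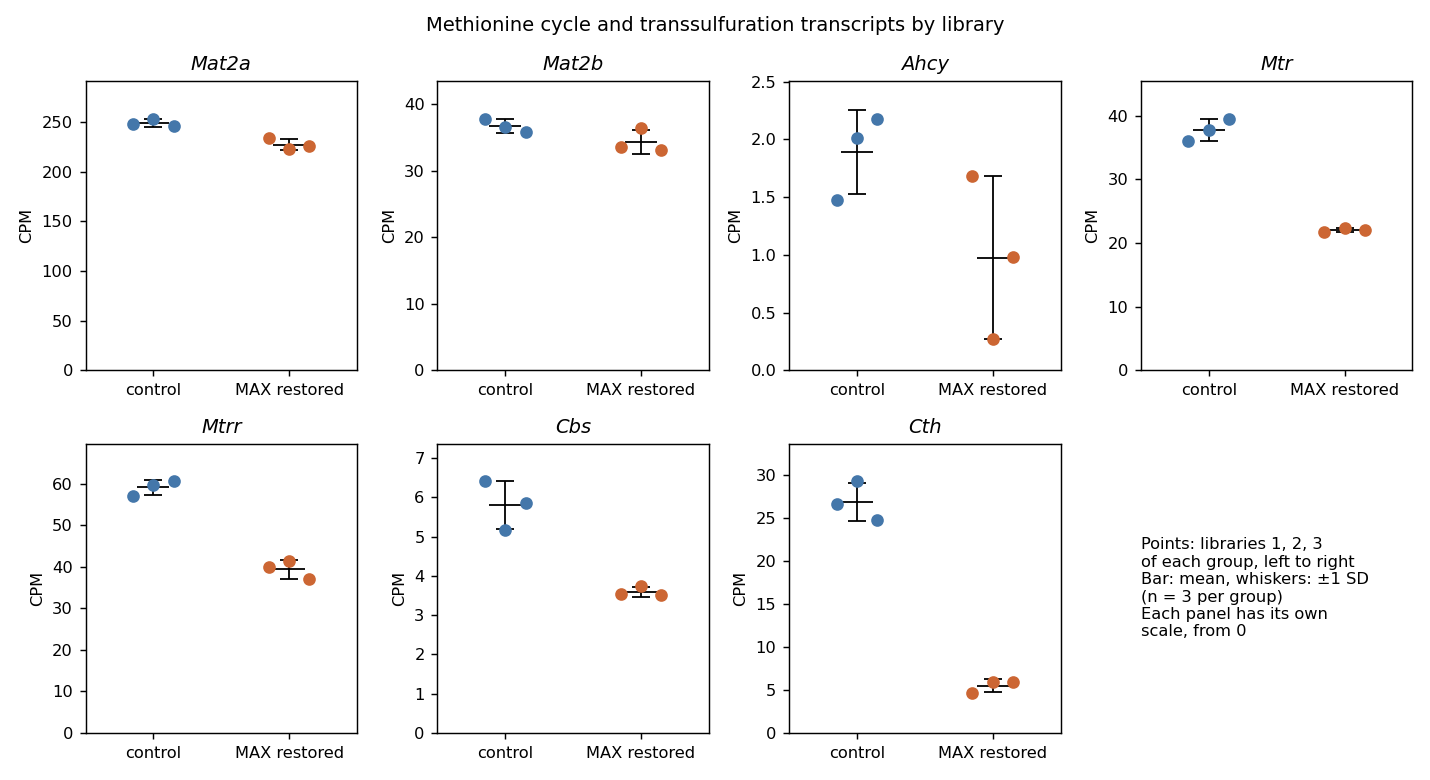
CPM of the 7 enzyme genes in each library, with the group mean and 1 SD (n = 3 per group), each panel on its own axis from 0. Cth, Mtr, Mtrr, Cbs and Mat2a are lower in every MAX restored library than in any control, while the points of Mat2b and Ahcy overlap.

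MYC-MAX and MXD-MAX dimers bind the E-box CACGTG, and ATF4, the factor of the amino acid response, binds elements with the core TGATGNAA. The 250 bases before the start site, as RefSeq gives it for GRCm38.p6, were found for 6 of the 7 genes, all except Cth. They were searched on both strands for CACGTG, for its variant CACGCG and for TGATGNAA. The E-box was found in Cbs alone, and 6.86% of all 27025 genes with such a window hold it. The variant was found in Mat2b and Mtrr (8.65% of all genes), and TGATGNAA in none of the 6 (3.91% of all genes). No matches overlapped. The windows shown set those with a match beside that of Mtr, which holds none. They lie on the minus strand at chr17:31637206-31637455 for Cbs, chr13:68582105-68582354 for the more downstream of 2 Mtrr starts, chr11:40692683-40692932 for Mat2b and chr13:12258114-12258363 for Mtr. Capitals mark the matches, and each is read 5′ to 3′ towards the gene.
Cbs: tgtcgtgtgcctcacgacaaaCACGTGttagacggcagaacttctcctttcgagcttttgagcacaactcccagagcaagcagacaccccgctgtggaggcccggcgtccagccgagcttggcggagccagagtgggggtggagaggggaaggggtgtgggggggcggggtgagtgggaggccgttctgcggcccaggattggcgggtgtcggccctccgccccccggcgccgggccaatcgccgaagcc
Mtrr: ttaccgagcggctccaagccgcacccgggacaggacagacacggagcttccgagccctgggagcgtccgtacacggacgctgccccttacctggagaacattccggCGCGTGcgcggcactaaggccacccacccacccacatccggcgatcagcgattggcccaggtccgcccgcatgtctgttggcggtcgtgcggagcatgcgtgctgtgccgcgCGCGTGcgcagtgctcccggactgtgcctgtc
Mat2b: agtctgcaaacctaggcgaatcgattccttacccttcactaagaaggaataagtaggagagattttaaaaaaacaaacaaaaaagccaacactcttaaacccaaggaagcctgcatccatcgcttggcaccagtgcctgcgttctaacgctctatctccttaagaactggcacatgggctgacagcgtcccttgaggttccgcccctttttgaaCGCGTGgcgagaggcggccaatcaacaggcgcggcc
Mtr: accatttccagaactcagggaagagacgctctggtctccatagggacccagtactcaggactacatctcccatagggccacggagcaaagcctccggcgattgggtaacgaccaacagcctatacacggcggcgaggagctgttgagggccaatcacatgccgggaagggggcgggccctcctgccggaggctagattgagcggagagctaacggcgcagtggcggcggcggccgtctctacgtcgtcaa
The match in Cbs begins 229 bases before the start site, those in Mtrr 144 and 32 bases before it, and that in Mat2b 36 bases before it. A match is a string of letters and does not show binding, and its relation to the changes was not tested.

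Synthesis of SAM was the step whose transcripts changed least. Mat2a encodes the catalytic subunit of the methionine adenosyltransferase of most tissues (chromosome 6 of mm9, 72382793 to 72389552, minus strand, 9 exons). Its level was 248, 253 and 246 CPM in controls 1, 2 and 3, and 233, 223 and 225 CPM in MAX restored libraries 1, 2 and 3. The groups did not overlap, though they lay close. On average it went from 249 ± 3.65 to 227 ± 5.62 CPM (SD, n = 3), a log2 fold change of -0.13 (SE 0.04, edgeR adjusted p = 0.00697). The call rested on MAX restored 2: without it the log2 fold change was -0.11 and the adjusted p 0.0595, over a range of 0.000141 to 0.0595 across the alternatives. Of the exon bases of Mat2a, 213 are shared with Particl, an antisense transcript. The counting ignored strand and set no option for reads that overlap several genes, so reads from these bases cannot be assigned to either. Particl lay between 5.61 and 9.71 CPM in the 6 libraries and did not pass the threshold (log2 -0.05).

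Mat2b encodes the regulatory subunit that binds MAT2A (chromosome 11, 40492816 to 40508705, minus strand, 8 exons). It was read at 37.8, 36.6 and 35.8 CPM in the controls and at 33.5, 36.4 and 33.1 CPM with MAX restored. MAX restored 2 lay within the control range. The log2 fold change was -0.10, with a 95% interval from -0.23 to 0.04 (edgeR adjusted p = 0.208).

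Ahcy encodes the hydrolase that removes S-adenosylhomocysteine, an inhibitor of methyltransferases (chromosome 2, 154885048 to 154900233, minus strand, 10 exons). It had 15, 21 and 22 counts in the controls and 20, 3 and 10 counts with MAX restored. MAX restored 1 lay within the control range and MAX restored 2 far below it. All 3 controls reached the minimum count of 10 for testing and MAX restored 2 did not. Ahcy thus entered the test through the group where it is high. The summed counts, 58 against 33, give a ratio of control to MAX restored of 1.91 (95% exact binomial interval 1.23 to 3.02, counting error only). The edgeR log2 fold change was -0.93 (SE 0.39, adjusted p = 0.0422). Without MAX restored 2 it was -0.47 (adjusted p = 0.237) and without MAX restored 1 it was -1.61. The call was also lost without control 2 (adjusted p = 0.0917), without control 3 (0.113), without MAX restored 3 (0.104) and with DESeq2 (0.0858). The adjusted p ranged from 0.00481 to 0.237 across the alternatives.

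The level of Ahcy itself cannot be read from these counts. Of the 2494 distinct 50-base words of its longest coding transcript in GENCODE M21, 77% also occur in transcripts of 4 other genes, 3 of them annotated as pseudogenes. The fourth, Gm4737, shares 1847 of the words. Reads from such words match several places, and the files' header sets no option to count them. Gm4737 itself had 78, 106 and 76 counts in the controls and 78, 76 and 56 with MAX restored (log2 -0.43, SE 0.15, edgeR adjusted p = 0.0170). The same share was 11.4% for Mat2a, 1.54% for Cbs and 0% for Mat2b, Mtr, Mtrr and Cth. How many Ahcy reads were left out was not tested.

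Transcripts of both genes of homocysteine remethylation, Mtr and Mtrr, fell. Mtr encodes the vitamin B12-dependent methionine synthase, which takes the methyl group from methyl-folate (chromosome 13, 12278807 to 12350380, minus strand, 33 exons). Its level was 36.0, 37.8 and 39.5 CPM in the controls and 21.8, 22.4 and 22.0 CPM with MAX restored. The groups stood 13.6 CPM apart at their nearest libraries. On average it went from 37.8 ± 1.79 to 22.0 ± 0.317 CPM (SD, n = 3), a log2 fold change of -0.78 (SE 0.07, edgeR adjusted p = 1.27e-08).

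Mtrr encodes the reductase that reactivates methionine synthase (chromosome 13, 68699657 to 68721046, minus strand, 15 exons). It was read at 57.1, 59.7 and 60.5 CPM in the controls and at 40.0, 41.4 and 36.9 CPM with MAX restored. No library of a group came within 15.7 CPM of the other group. On average it went from 59.1 ± 1.78 to 39.4 ± 2.28 CPM (SD, n = 3), a log2 fold change of -0.58 (SE 0.06, edgeR adjusted p = 4.53e-08).

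Both transsulfuration genes fell, to very different depths. Cbs encodes cystathionine beta-synthase, which joins homocysteine and serine (chromosome 17, 31749568 to 31774150, minus strand, 17 exons). It was low, with 65, 54 and 59 counts in the controls and 42, 42 and 36 with MAX restored. In CPM the controls were 6.40, 5.18 and 5.84 and the MAX restored libraries 3.53, 3.75 and 3.52, with no overlap. The log2 fold change was -0.69 (SE 0.16, edgeR adjusted p = 0.00108).

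Cth encodes cystathionine gamma-lyase, which releases cysteine from cystathionine (chromosome 3, 157557212 to 157588027, minus strand, 12 exons). It had 270, 305 and 250 counts in the controls and 55, 66 and 61 with MAX restored. These are 26.6, 29.2 and 24.8 CPM against 4.62, 5.89 and 5.96 CPM, so that the lowest control lay 18.8 CPM above the highest MAX restored library. On average it went from 26.9 ± 2.25 to 5.49 ± 0.753 CPM (SD, n = 3), a log2 fold change of -2.30 (SE 0.12, edgeR adjusted p = 1.60e-12). Ranked from the lowest log2 fold change, Cth was number 43 of the 12664 genes tested. Over the 14 alternatives its log2 fold change lay between -2.35 and -2.17.

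**Figure D2:**
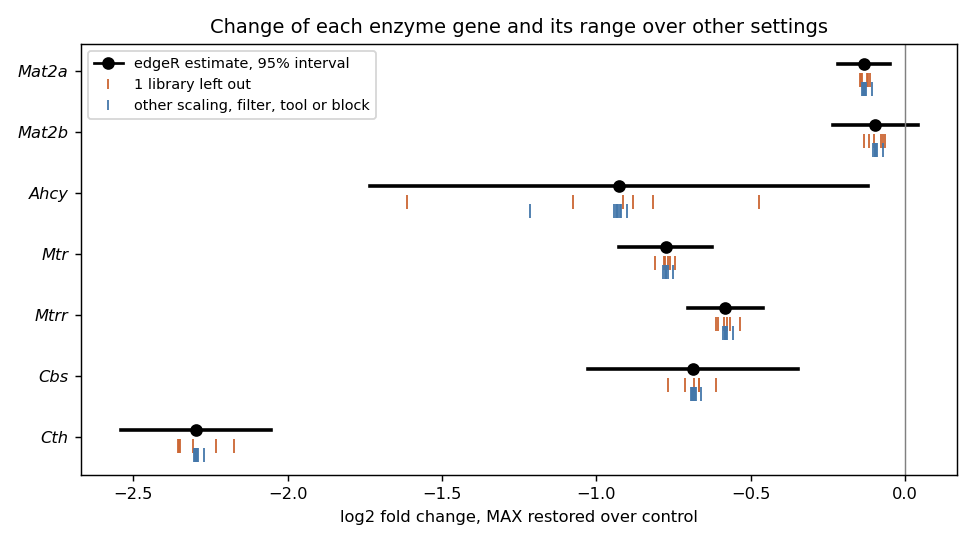
The log2 fold change of each enzyme gene (MAX restored over control) with its 95% interval in black, and below it the estimates with 1 library left out (orange) and with another scaling, filter, tool or the replicate block (blue). Cth stays between -2.35 and -2.17, while Ahcy spreads from -1.61 to -0.47.

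Levels between genes were compared per kilobase of annotated exon. In the controls Mat2a was highest, at 88.8 ± 1.30 CPM per kilobase (SD, n = 3), followed by Mat2b at 16.3 ± 0.459, Cth at 14.9 ± 1.25, Mtrr at 13.1 ± 0.394, Mtr at 8.42 ± 0.398, Cbs at 2.32 ± 0.245 and Ahcy at 0.744 ± 0.144. Mat2b and Cth overlapped between libraries, and no other neighbours in this order did. With MAX restored Mat2a stayed first at 81.0 ± 2.01 CPM per kilobase and Mat2b second at 15.2 ± 0.789. Mtrr (8.75 ± 0.505) and Mtr (4.92 ± 0.0707) now lay above Cth (3.05 ± 0.418), with Cbs at 1.44 ± 0.0515 and Ahcy at 0.384 ± 0.278. No neighbours overlapped in that group. Cth thus went from the third to the fifth place, and the place of Ahcy carries the limit given with its reads.

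**Figure D3:**
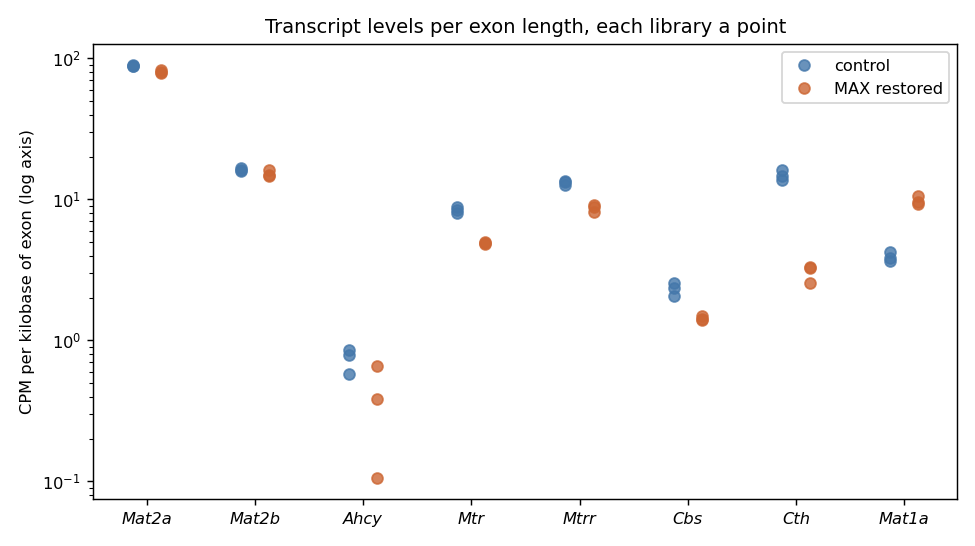
CPM per kilobase of exon on a log axis for the 7 enzyme genes and Mat1a, each point a library. Mat2a lies above all others in both groups, Cth drops from 14.9 to 3.05 on average, and Mat1a moves the opposite way.

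Ratios between partner enzymes were compared over the 6 libraries with exact two-sided permutation tests, for which 3 against 3 cannot give a p under 0.1. The ratio of Mat2a to Mat2b, in counts per kilobase, was 5.46 ± 0.165 in the controls and 5.33 ± 0.361 with MAX restored (SD, n = 3; exact p = 0.7). The ratio of Mtr to Mtrr was 0.642 ± 0.0130 and 0.563 ± 0.0306, with no overlap (exact p = 0.1). The ratio of Cbs to Cth was 0.173, 0.127 and 0.170 in the controls and 0.549, 0.458 and 0.425 with MAX restored (exact p = 0.1). Every MAX restored library was thus above every control for that pair, a difference of 1.61 in the mean log2 ratio. Adjusted by Benjamini-Hochberg over the 3 pairs, the p-values were 0.7, 0.15 and 0.15, so none passed 0.05.

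**Figure D4:**
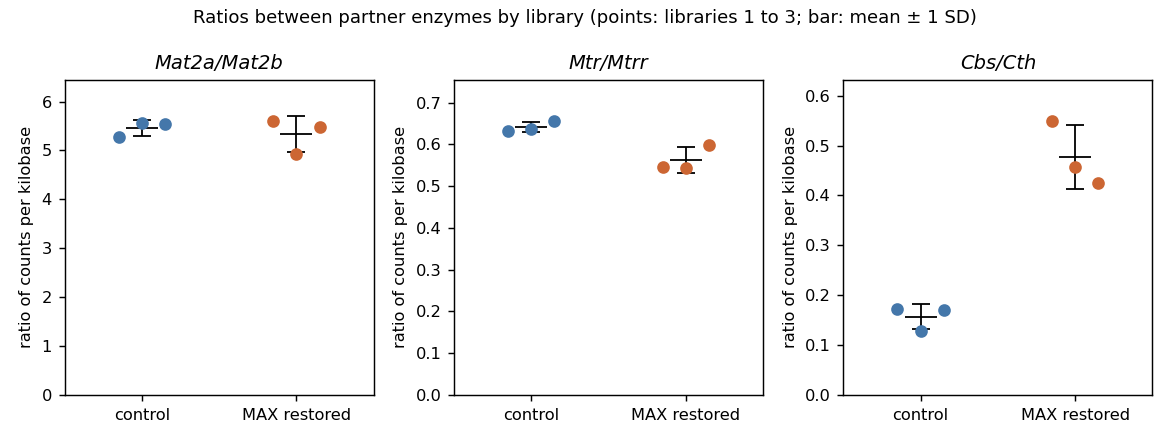
Ratio of counts per kilobase for the 3 enzyme pairs in each library, with mean and 1 SD (n = 3 per group). The Cbs to Cth ratio is at most 0.173 in the controls and at least 0.425 with MAX restored, while the Mat2a to Mat2b ratio overlaps between groups.

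The 7 genes lie on 6 chromosomes of mm9, and the 5 tested genes on each side of each of them were read in mm9 order. Among all genes tested 31.2% were called higher and 32.3% lower, and the neighbour counts were not tested against these shares. Around Cth 1 of 10 neighbours was called higher and 4 lower (median log2 -0.14), around Mtr 3 and 5 (-0.10), around Mtrr 1 and 2 (-0.15) and around Cbs 2 and 4 (-0.02). Around Mat2a 4 were higher and 2 lower (0.09), and around Ahcy 2 and 3 (0.03). Of the 7 genes Mat2b had the neighbours with the median furthest from 0, with 8 of 10 lower and 2 higher (median -0.34). Mat2b did not itself pass the threshold.

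Among 66 further genes of the pathway's neighbouring steps, 54 were tested, of which 25 (46.3%) fell and 10 (18.5%) rose, where 32.3% and 31.2% of all genes tested did. Their median log2 fold change was -0.13. The other methionine cycle enzymes moved both ways. Mat1a, the catalytic subunit typical of liver, rose from 13.4, 12.8 and 14.7 CPM in the controls to 32.4, 33.4 and 36.7 CPM with MAX restored (log2 1.32, SE 0.09, edgeR adjusted p = 1.01e-10). Per kilobase Mat1a made up 4.22% ± 0.326 of the Mat1a and Mat2a transcripts in the controls and 10.8% ± 0.772 with MAX restored (SD, n = 3), a share formed after the values were seen. Ahcyl2, a relative of Ahcy, fell (-0.52, SE 0.05), and Ahcyl1 did not pass (0.03). Bhmt and Bhmt2, the betaine-dependent methyltransferases, had no count in any library.

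Of 11 small-molecule users of SAM, 6 were tested, of which 2 fell and 1 rose (median log2 0.06). Among all genes tested 32.3% fell and 31.2% rose, so these few calls do not set the list apart. Gnmt, glycine N-methyltransferase, fell from 8.86 ± 1.15 to 3.93 ± 0.179 CPM (SD, n = 3; log2 -1.17). Pemt, which makes phosphatidylcholine, fell by log2 -1.10 (SE 0.20). Gamt, which makes creatine, rose from 12 to 73 summed counts, a ratio of 5.60 (95% exact binomial interval 3.02 to 11.3, counting error only). Its log2 fold change of 2.45 became 3.08 without control 2 and 1.95 without MAX restored 1, and it was called each time. Gamt had 1, 7 and 4 counts in the controls and 40, 19 and 14 with MAX restored. It reached the minimum count of 10 for testing only with MAX restored, so it entered the test through the group where it is high. Not tested were Nnmt, Hnmt and Inmt, and Amd1 and Amd2, which encode SAM decarboxylase and are listed at 0 in all libraries. Of the 50-base words of Amd1, 87.6% occur in other genes, 2715 of 3155 in Amd2, so no level can be read from these zeros. Why the counts are 0 throughout was not tested.

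Methionine salvage recovers methionine from the methylthioadenosine left by polyamine synthesis, and its list also held Srm and Sms, genes of that synthesis. The list was lower in 5 of 7 genes and higher in 0 (median log2 -0.46). Among all genes tested 32.3% were lower and 31.2% higher. The 0 held at an unadjusted p under 0.05 and with DESeq2 and limma voom. With 1 library left out 4 to 5 genes of the list were called lower and 0 to 1 higher. Mtap, named after its values were seen, fell by log2 -0.32 (SE 0.12), while Apip (0.15) and Adi1 (0.09) did not pass. The spermidine synthase gene Srm fell by log2 -0.50 (SE 0.05), the spermine synthase gene Sms by -0.57 (SE 0.08), Mri1 by -0.80 (SE 0.12) and Enoph1 by -0.46 (SE 0.08). The surroundings of these genes differed: all 10 neighbours of Sms were lower (median log2 -1.07), while 8 of 10 neighbours of Srm and 7 of 10 of Mri1 were higher (0.45 and 0.27). Whether position bears on these changes was not tested.

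Of 11 genes of vitamin B12 handling 9 were tested, 3 falling and 3 rising (median log2 -0.07), which is near the 32.3% and 31.2% of all genes tested and sets the list apart in no direction. The carrier protein gene Tcn2 rose from 3.71 ± 0.358 to 10.6 ± 0.746 CPM (SD, n = 3; log2 1.51). Its cellular receptor gene Cd320 fell from 31.3 ± 2.75 to 14.6 ± 1.49 CPM (log2 -1.09). Mmachc, which processes the vitamin inside the cell, fell (log2 -0.75, SE 0.08), as did Mut, the mitochondrial methylmalonyl-CoA mutase that also uses it (-0.36, SE 0.05). Of the 10 neighbours of Mut 9 were lower (median log2 -1.18), among them Rn45s, which was high in control 1, and their part in its fall was not tested. Cubn and Amn were not tested.

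Of 12 genes that use cysteine or its sulfide, 6 fell and 2 rose (median log2 -0.21). The 8 called of 12 lie near the 63.5% called among all genes tested, of which 32.3% fell and 31.2% rose. Cdo1, which oxidises cysteine on the way to taurine, rose from 25.1 ± 3.47 to 67.2 ± 4.57 CPM (SD, n = 3; log2 1.42). Got1, an aspartate aminotransferase that also acts on cysteine sulfinate, fell (-0.70, SE 0.06), and the sulfurtransferase genes Mpst and Tst fell by log2 -0.43 and -0.44.

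Transport of methionine and cystine was lower in 7 of 9 tested genes of 12 and higher in 1 (median log2 -0.70), where 32.3% and 31.2% of all genes tested were. Slc7a5 and Slc3a2, the light and heavy chains of a methionine importer, fell from 757 ± 32.7 to 437 ± 6.77 CPM and from 473 ± 11.4 to 255 ± 6.39 CPM (SD, n = 3; log2 -0.79 and -0.89). Slc1a5, a neutral amino acid carrier, fell by log2 -1.03 (SE 0.05), while Slc43a2, another carrier of large neutral amino acids, rose (0.95, SE 0.06). Slc7a11, the cystine carrier, and Slc25a26, the mitochondrial SAM carrier, were named after their values were seen. They fell by log2 -0.78 (SE 0.06) and -0.70 (SE 0.13), so that transcripts of the cystine carrier and of Cth, which serve separate routes to cysteine, were both lower with MAX restored. Slc7a8, Slc3a1 and Slc7a9 were not tested. In the windows before the start site, found for 47 genes of all these further lists, CACGTG occurred in 3 of the 47, CACGCG in 12 and TGATGNAA in 2. Among all genes with a window the shares were 6.86%, 8.65% and 3.91%, so CACGCG was more frequent here and the others were near their shares. A gene with several windows was counted if any of them held a match, and the shares cover all genes, expressed or not. Differences in these were not allowed for, and the counts were not tested.

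The 7 genes of RNA m6A methylation and of Mat2a transcript processing moved little (median log2 0.06). Wtap, a partner of the METTL3 methyltransferase, rose (log2 0.33, SE 0.06). Mettl3 itself was at the threshold (log2 -0.18, SE 0.08, edgeR adjusted p = 0.0473), and under 11 of 14 alternatives it was not called. Mettl16, which methylates the Mat2a transcript, did not pass (log2 0.10, SE 0.08).

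**Figure D5:**
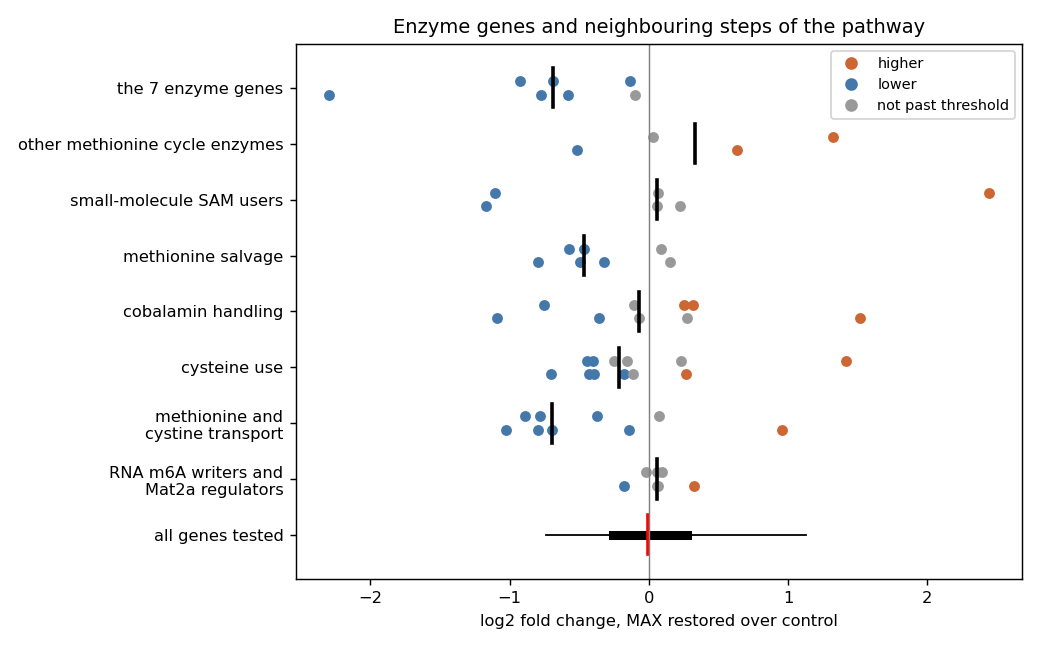
The log2 fold change (MAX restored over control) of each tested gene in the 7 enzyme genes and the 7 neighbouring lists, coloured by call, with the list's median as a black bar; the bottom line spans the 5th to 95th percentiles of all genes tested, with the 25th to 75th percentiles thick and the median in red. The enzyme genes and the transport list have medians near -0.7, where the middle 90% of all genes lie between -0.74 and 1.13.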

How the data were processed

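RNA from 6 libraries of 1 mouse line was sequenced, and groups were taken from the labels' treatment field. Per the submitters' processing notes the tools were bcl2fastq 1.8.4, STAR 2.5.2a and featureCounts (Subread 1.6.0) with mm9. Each library has 1 deposited file of unscaled read counts per gene symbol, made by the authors, per the file headers, over the exons of the UCSC mm9 annotation without strand and with no option to count reads that match several places or genes. No standard was added, so changes are relative to the other transcripts.

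Genes were kept with edgeR 4.0.16's filterByExpr (minimum count 10), which left 12664 of 24391, and scaled by TMM. The two-sided quasi-likelihood test of edgeR in R 4.3.3 had the group as its only term. The p-values were adjusted by Benjamini-Hochberg over the 12664 genes and called under 0.05. A standard error is the absolute log2 fold change over the square root of F. Ratios of counts have exact binomial 95% intervals that cover counting error only, since without molecular identifiers several reads can come from 1 molecule. Alternatives were other scalings and filters, DESeq2 1.42.0, limma voom (limma 3.58.1), the replicate number as a block and leaving out each library. Scripts were tested on simulated data. Sequences are from RefSeq (GRCm38.p6) and GENCODE M21 (GRCm38); their coordinates were never mixed with those of mm9. The enzyme genes and lists were chosen with earlier results of these data known. The genes named are all 7 enzyme genes, up to 4 called members of each further list with the smallest p, and its untested members; others are marked as named after their values were seen, except members given for a value that did not pass. A result that falls under this rule is not reported here.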

Additional observations from a re-analysis of the deposited data

How the results depend on the processing

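The direction of all 7 enzyme genes was the same under all 14 alternatives. Mtr, Mtrr, Cbs and Cth were called lower under each of them and Mat2b under none. The number of enzyme genes called lower was 6, and 5 with DESeq2, where Ahcy had a log2 fold change of -0.94 and was not called. With 1 library left out it ranged from 4 to 6. Leaving out 1 library moved the log2 fold change of Mat2a between -0.15 and -0.11 and that of Ahcy between -1.61 and -0.47, and both lost their call in at least 1 case. The difference in the log2 ratio of Mat2a to Mat2b, -0.04, ranged from -0.0721 to 0.0213 and changed sign without MAX restored 2; those of Mtr to Mtrr (-0.23 to -0.17) and Cbs to Cth (1.47 to 1.69) kept theirs. The correlations of same-numbered libraries' deviations were 0.0035, 0.04 and -0.02, and not every library correlated best with its own number. Counting noise also weakens such correlations, so they cannot exclude that replicate numbers pair the samples. With the replicate number as a block 3941 genes were called higher and 4093 lower, against 3948 and 4092 without it, and 6 enzyme genes were lower. No scaling moved the median of all genes by more than 0.03 (log2). The fewest counts in a library among the enzyme genes were 3 for Ahcy, whose shared sequence also limits it, and 36 for Cbs.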
